A study of Homo sapiens with 9 samples.

Results

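The genes described here are AOC1 and 9 further genes of polyamine metabolism, ODC1, AMD1, SRM, SMS, OAZ1, AZIN1, SAT1, PAOX and SMOX. They were taken from the count tables by gene symbol, 10 of the 58920 genes listed, and all 10 were among the 19102 genes tested, those whose counts summed to at least 10 across the 9 libraries. AOC1 was picked for its change between the cell lines, so its values are a description with no test and it stands outside every count of members. The other 9 were named for their place in the pathway, but with earlier results of these data known. The counts below are out of those 9.

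Polyamines (putrescine, spermidine and spermine) are small, positively charged metabolites that bind nucleic acids and are needed for growth. ODC1 (ornithine decarboxylase) makes putrescine from ornithine and is rate limiting, AMD1 (adenosylmethionine decarboxylase) supplies the aminopropyl donor, and SRM and SMS use that donor to build spermidine and then spermine. OAZ1 (antizyme) binds ODC1 and hands it to the proteasome, while AZIN1, an inactive relative of ODC1, captures antizyme. SAT1 acetylates spermidine and spermine, PAOX oxidises the acetylated forms back towards putrescine, and SMOX oxidises spermine directly. AOC1 (diamine oxidase) is a copper-containing enzyme that oxidises putrescine and histamine and is known from the intestinal epithelium.

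LIM1215, as the parental line, is a colorectal cancer cell line without RAS mutation that is sensitive to cetuximab, an antibody against the epidermal growth factor receptor. In both resistant lines the study reports an activating HRAS mutation, a different one in each, carried by part of the cells. The part of these mutations in the differences below was not tested. LIM1215-R1 (labelled Resistant_1) and LIM1215-R2 (Resistant_2) were selected independently from LIM1215 under rising cetuximab concentrations over months and are mixed, non-clonal populations. LIM1215-parental (Parental) was passaged alongside without the antibody. Each of the 3 lines was sequenced as 3 libraries of polyadenylated RNA, without drug, in the same serum-containing medium. The study calls the 3 libraries of a line technical replicates, so every SD and p-value below describes the spread between these libraries and not between independently selected populations.

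Total counts ran from 13737416 to 18725014 per library with a median of 16189189, TMM scaling factors from 0.984 to 1.02, and the share of counts from mitochondrial genes from 5.93% to 6.52%. The marker genes of colon epithelium summed to 11945 to 12323 CPM in parental, 15382 to 15655 in R1 and 13902 to 14315 in R2 libraries. Of these, 3 of 7 tested passed as higher and 3 as lower in each resistant line. Among all genes tested, 14.0% passed as higher and 13.4% as lower in R1, and 12.3% and 11.6% in R2. KRT20, a marker of differentiated colonocytes, was at 0 in all 9 libraries. The leukocyte markers PTPRC, CD3E and MS4A1 were at 0 in all 9 libraries and that list's sum, nearly all CD68, was 6.90 to 10.1 CPM in parental, 11.8 to 14.4 in R1 and 8.56 to 10.5 in R2 libraries, with CD68 passing as higher in R1 (log2 fold change 0.70, adjusted p = 9.24e-05). The summed fibroblast and endothelial markers stayed at or below 3.19 and 0.722 CPM, no fibroblast marker passed, and PECAM1, with 15 counts over the parental libraries and 0 in every resistant one, passed as lower in both lines. The PECAM1 calls were lost without any one library of the resistant line compared, and also without R2 replicate 2 in R1 and R1 replicate 3 in R2 (adjusted p up to 0.0277 and 0.0331). Parental replicate 2 held 10 of the 15 PECAM1 counts and also had the lowest total. With 3 libraries per line, whether a library stood apart from the others was not tested.

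Promoter sequence was available for 7 of the 10 genes as 250 bases before an annotated start (RefSeq, GRCh38.p14), with no entry for SMOX, PAOX and AZIN1. The windows of AOC1, SRM, SAT1 and ODC1 are shown: AOC1, SRM and SAT1 had higher RNA levels in both resistant lines and ODC1 is the pathway's rate-limiting step. Those of AMD1, also higher in both lines, and of OAZ1 and SMS are not printed. Each reads 5′ to 3′ on the gene's own strand, from chr7:150852267-150852516 (+) for AOC1, chr1:11060019-11060268 (-) for SRM, chrX:23782923-23783172 (+) for SAT1 and chr2:10448328-10448577 (-) for ODC1. Capitals mark the E-box CACGTG (the letters MYC proteins recognise), the GC box (GGGCGG, or CCGCCC on the other strand) and the CCAAT box (CCAAT, or ATTGG on the other strand). No marked motif overlaps another. The AOC1 window lies inside the annotated gene span, before the start that the promoter set uses.
AOC1: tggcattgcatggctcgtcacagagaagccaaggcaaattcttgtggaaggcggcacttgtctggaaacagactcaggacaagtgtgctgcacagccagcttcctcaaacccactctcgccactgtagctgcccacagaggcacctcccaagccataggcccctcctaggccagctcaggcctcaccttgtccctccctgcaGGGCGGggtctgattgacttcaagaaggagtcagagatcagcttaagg
SRM: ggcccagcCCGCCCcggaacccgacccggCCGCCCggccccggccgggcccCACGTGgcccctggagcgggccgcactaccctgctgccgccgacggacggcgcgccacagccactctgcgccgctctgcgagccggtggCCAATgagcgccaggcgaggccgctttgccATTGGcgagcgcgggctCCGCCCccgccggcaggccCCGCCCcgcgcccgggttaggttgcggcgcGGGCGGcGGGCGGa
SAT1: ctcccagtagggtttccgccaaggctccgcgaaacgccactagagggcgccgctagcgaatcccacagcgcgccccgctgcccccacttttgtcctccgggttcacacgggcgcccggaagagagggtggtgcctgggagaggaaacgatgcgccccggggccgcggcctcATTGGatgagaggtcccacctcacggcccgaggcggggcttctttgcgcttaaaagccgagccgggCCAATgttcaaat
ODC1: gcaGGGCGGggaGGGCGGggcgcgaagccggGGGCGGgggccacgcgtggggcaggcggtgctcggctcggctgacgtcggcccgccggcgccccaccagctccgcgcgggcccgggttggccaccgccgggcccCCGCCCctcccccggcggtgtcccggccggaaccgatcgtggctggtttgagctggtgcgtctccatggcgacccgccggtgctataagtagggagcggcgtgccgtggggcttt

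The SRM window holds 1 E-box at -199 (position of its leftmost base from the start), along with 6 GC boxes and 2 CCAAT boxes. The AOC1 window holds a single GC box at -48 and none of the other motifs, the SAT1 window 2 CCAAT boxes only, and the ODC1 window 4 GC boxes. A further annotated ODC1 start, not printed, has an E-box at -29. No window of AMD1, OAZ1 or SMS holds an E-box. Over all 35116 promoter windows of the same length, 6.34% held the E-box, 42.6% the GC box and 32.0% the CCAAT box, and TATAAA, found in no window of the 7 genes, was in 10.7%. CpG pairs numbered 4 in the AOC1 window, against 40 for SRM, 36 for ODC1, 25 for SAT1 and a median of 11 over all windows. The 97.8% of windows with fewer CpG pairs than SRM and the 29.3% with fewer than AOC1 place these genes far apart in base composition. These matches describe letters in the windows and say nothing about bound factors.

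AOC1 RNA was low in parental cells and several times more abundant in both resistant lines, most in LIM1215-R1. AOC1 (chr7:150852120-150861504, GRCh38) had 36, 45 and 46 counts in the parental libraries, or 2.12, 3.25 and 2.42 CPM (read counts scaled to a common library size, with TMM factors). LIM1215-R1 had 16.8, 18.3 and 19.0 CPM and LIM1215-R2 had 9.16, 10.3 and 12.2 CPM. The 3 lines did not overlap: every R1 library was above every R2 library, and every R2 library above every parental one.

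The mean AOC1 level was 2.60 ± 0.585 CPM in parental cells, 18.0 ± 1.11 in R1 and 10.6 ± 1.55 in R2 (SD, n = 3). That is 6.94-fold the parental mean in R1 and 4.06-fold in R2. On the log2 scale the fitted differences were 2.81 (SE 0.15) for R1 and 2.04 (SE 0.16) for R2, and R2 lay 0.78 lower than R1 (log2 difference -0.78, SE 0.12). These differences chose the gene and carry no test. Bulk counts cannot tell apart more cells with AOC1 RNA and more RNA per cell.

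**Figure D1:**
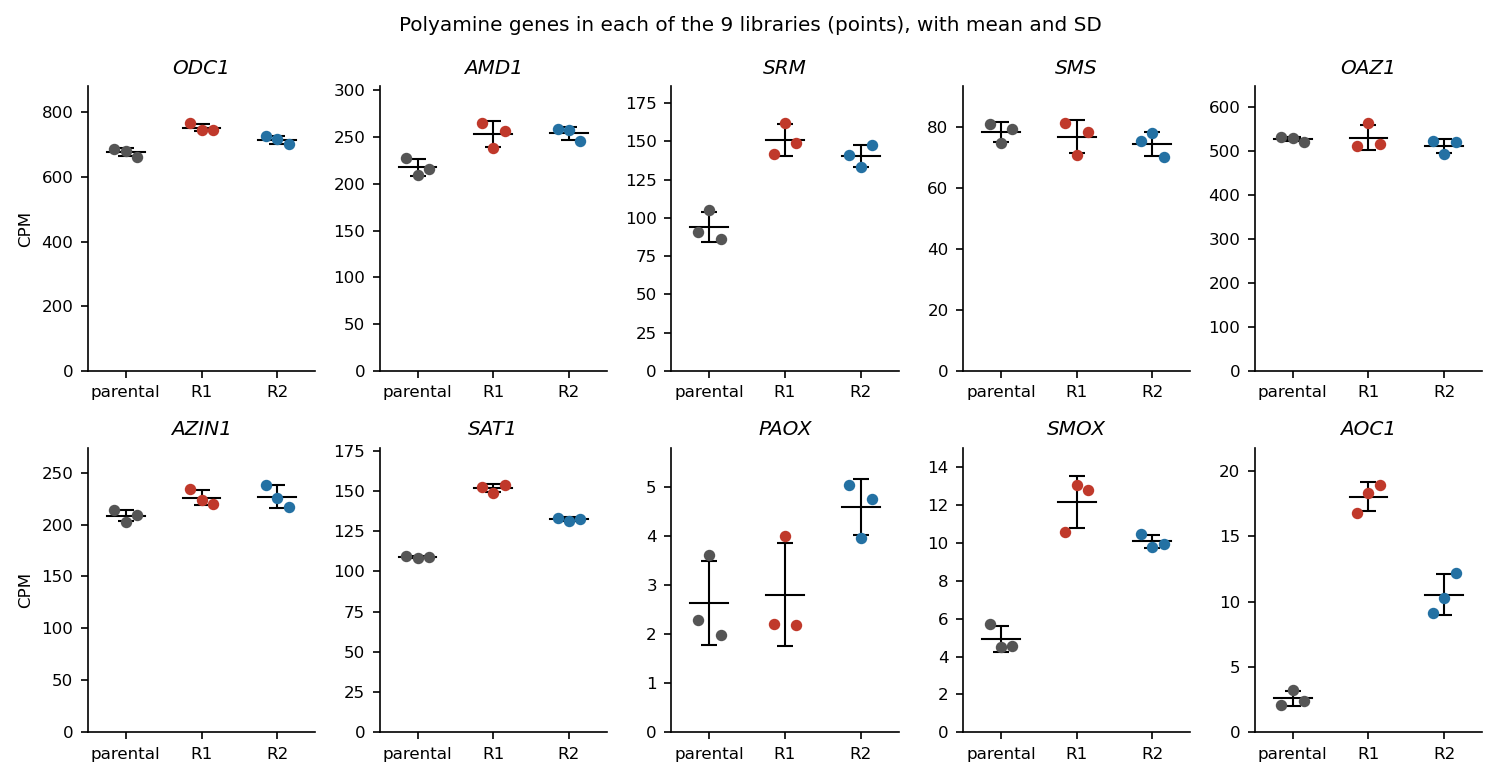
Level of each of the 10 genes in CPM (vertical axes, each from 0) in the 3 libraries of LIM1215-parental, R1 and R2 (points), with the mean as a horizontal line and the SD as a bar. AOC1 steps from 2.60 CPM to 18.0 and 10.6, SRM, SAT1 and SMOX sit above parental in every resistant library, and SMS and OAZ1 overlap across the lines.

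In the panels by library, the parental and R1 libraries of PAOX scatter most relative to their mean. AOC1 is a gene of absorptive enterocytes, and the markers of that cell type moved in both directions. Their summed level was 9.25 to 11.8 CPM in parental, 10.5 to 14.8 in R1 and 7.49 to 9.73 in R2 libraries. Of 8 markers, APOA4 was at 0 in all libraries, APOA1 had too few counts to be tested, and 6 were tested. ALPI, an intestinal alkaline phosphatase, rose in both lines, while FABP1, FABP2 and SI passed as lower in both. FABP2 had 6, 7 and 9 counts in the parental libraries and SI 9, 3 and 4, both with 0 in every resistant library. CDHR5, at 4.82 CPM in parental, had log2 fold changes of 0.54 in R1 and 0.20 in R2 and did not pass (adjusted p = 0.0135 and 0.448). ANPEP, with at most 2 counts in a library, was at -0.88 and -1.39 and did not pass either. The SI calls were lost without any one library of the resistant line compared (adjusted p up to 0.0153 in R1 and 0.0182 in R2), and the ALPI call in R2 without parental replicate 3 or R2 replicate 2 or 3 (up to 0.0125). ALPI averaged 0.993 CPM in parental, 4.44 in R1 and 2.17 in R2. FABP1 averaged 4.13 CPM in parental, 0.996 in R1 and 0.930 in R2 (log2 fold changes -2.06 and -2.15), and lost its calls in 0 of 18 alternatives. In each line 1 of 6 markers passed as higher and 3 as lower. Over all genes tested, 14.0% passed as higher and 13.4% as lower in R1, and 12.3% and 11.6% in R2. The list's median log2 fold change was -1.47 in R1 and -1.77 in R2. The part of these genes' changes in the AOC1 levels was not tested.

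By a fixed measure, the Euclidean distance between log2 CPM profiles over the 9 libraries after centring each gene, the 5 genes most like AOC1 among 12562 others at a mean of 1 CPM or more were LCN2 (distance 0.48), TIMP1 (0.56), CBX6 (0.62), MRAS (0.67) and TRIM29 (0.68). LCN2, a secreted iron-siderophore binding protein, averaged 61.3 CPM in parental, 428 in R1 and 263 in R2. TIMP1, a metalloproteinase inhibitor, averaged 4.06, 25.1 and 19.0 CPM in the same order. The closest polyamine gene was SMOX, at rank 321 (distance 1.99), followed by SRM at rank 738 and SAT1 at rank 1278. SMS, at rank 6782, was the least alike of the 9.

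Around AOC1 on chromosome 7, the next 2 tested genes downstream, KCNH2 and NOS3, were also higher in the resistant lines. KCNH2 is a potassium channel gene. The lower chromosome coordinate of its span, on whichever strand it is read, lies 92.8 kb beyond that of AOC1. It had 5.43, 5.63 and 4.36 CPM in parental, 8.40, 9.85 and 8.01 in R1, and 12.3, 12.1 and 12.8 in R2 libraries. It rose by a log2 fold change of 0.78 in R1 (adjusted p = 3.17e-05) and 1.28 in R2 (adjusted p = 4.30e-09). NOS3, the endothelial nitric oxide synthase gene 138.9 kb away, rose by 1.10 in R1 (adjusted p = 8.34e-08) and 0.71 in R2 (adjusted p = 0.000119). Unlike AOC1, KCNH2 was highest in R2, where it was 0.50 above R1 on the log2 scale (adjusted p = 0.00401). That last call was lost without any single R2 library, without R1 replicate 1 or 3 and with DESeq2, with adjusted p up to 0.0377.

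**Figure D2:**
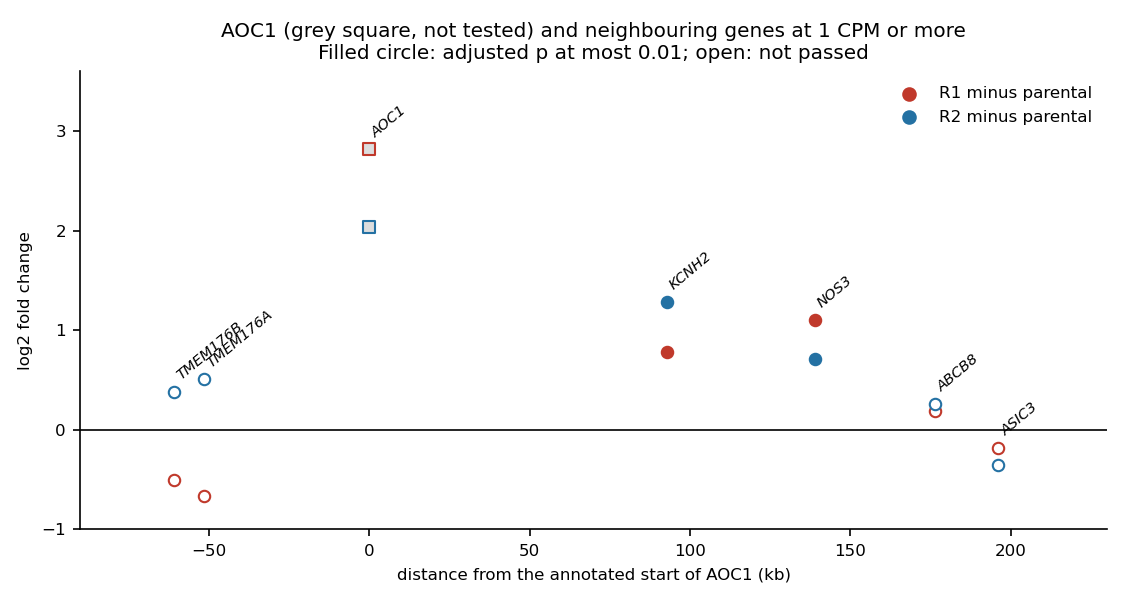
Log2 fold change against LIM1215-parental (vertical axis) of AOC1 and of 6 neighbouring genes at 1 CPM or more, by distance from the annotated AOC1 start in kb (horizontal axis), for R1 (red) and R2 (blue). KCNH2 at 92.8 kb and NOS3 at 138.9 kb passed in both lines, between 0.71 and 1.28.

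The plot by distance leaves out 4 of the 10 nearest tested genes, which had 10 to 32 counts over all libraries. Of the 10, KCNH2 and NOS3 passed in both comparisons and the other 8 in neither. A count of 2 of 10 is no higher than the share of all tested genes that passed, 27.3% in R1 and 23.8% in R2. TMEM176B and TMEM176A, upstream, had log2 fold changes of -0.51 and -0.67 in R1 and 0.38 and 0.50 in R2. ABCB8 and ASIC3, beyond NOS3, were at 0.18 and -0.18 in R1 and at 0.25 and -0.35 in R2. Of those left out of the plot, ATG9B, next after NOS3, had 32 counts over all libraries. It was at 2.64 in R1 and 2.83 in R2 and did not pass (adjusted p = 0.0473 and 0.0326). On 10 to 16 counts, LINC00996 was at -0.76 and 2.53, GIMAP2 at 0.60 and -3.50 and LOC124901773 at -0.49 and -4.05. LOC105375567, whose span overlaps AOC1, had at most 3 counts in a library.

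Among the other 9 genes, 5 rose in each resistant line and none fell, mostly by small amounts. A gene passed at an adjusted p of at most 0.01 (edgeR, Benjamini-Hochberg over all genes tested). In LIM1215-R1, 5 of 9 passed (ODC1, AMD1, SRM, SAT1 and SMOX), all higher than parental, against 27.3% of all genes passing, 14.0% as higher and 13.4% as lower. In LIM1215-R2, 5 of 9 passed (AMD1, SRM, SAT1, PAOX and SMOX), also all higher, against 23.8% of all genes, 12.3% as higher and 11.6% as lower. SMS, OAZ1 and AZIN1 passed in neither.

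The median log2 fold change of the 9 was 0.15 in R1 and 0.22 in R2, beside -0.011 and -0.0037 over all genes tested. By the study's threshold for a differentially expressed gene, which also asks for a log2 fold change of at least 1.5 in size, 0 of 9 qualified in either line. The share of all genes reaching that threshold was 5.14% for R1 and 4.82% for R2. The count was also 0 of 9 with an unadjusted p under 0.05 in edgeR and with DESeq2. None passed as lower in either comparison by edgeR or DESeq2, and 0 were lower at an unadjusted p under 0.05. Both comparisons use the same 3 parental libraries.

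**Figure D3:**
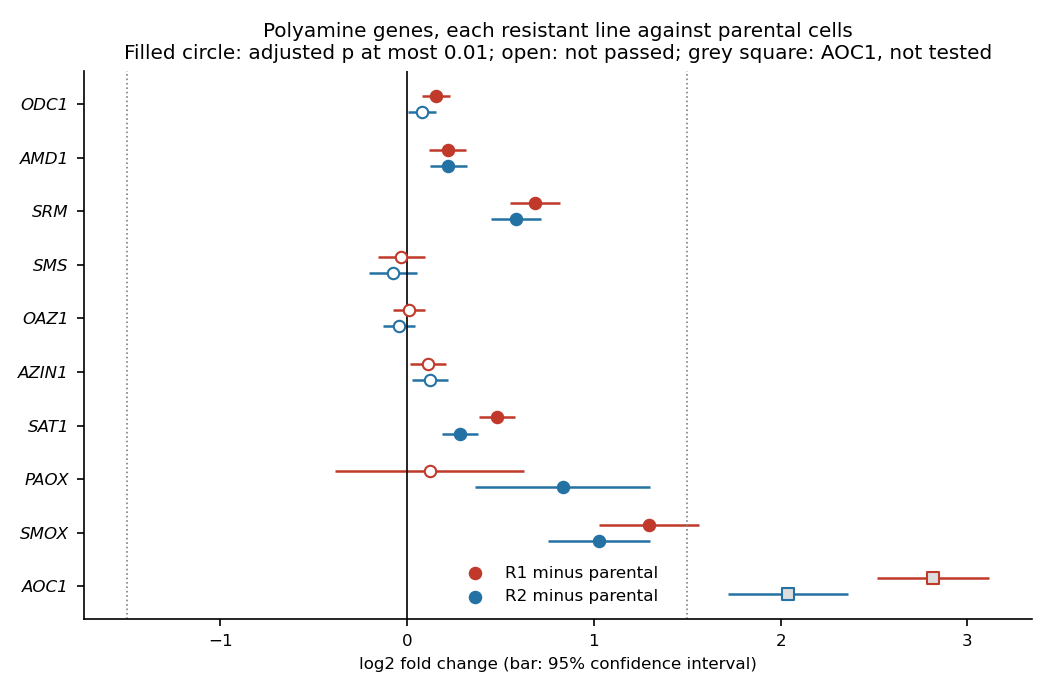
Log2 fold change (horizontal axis) of each gene in R1 (red) and R2 (blue) against LIM1215-parental, with 95% confidence intervals and dotted lines at a size of 1.5. SMOX, at 1.29 in R1 and 1.03 in R2, comes nearest to that size among the 9, and AOC1 (squares) is shown as a description.

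As the plot of fold changes shows, SMOX moved most of the 9 in both lines, followed by SRM in R1 and by PAOX and SRM in R2, and SMS and OAZ1 lay at 0 within their intervals. In the steps that make polyamines, SRM changed most. SRM (spermidine synthase, chr1:11054589-11060018) had 90.4, 105 and 86.4 CPM in the parental libraries, 142, 162 and 149 in R1, and 141, 133 and 147 in R2. All 6 resistant libraries were above all 3 parental ones, while R1 and R2 overlapped. SRM rose 1.60-fold in R1 (log2 fold change 0.69, SE 0.06, adjusted p = 1.44e-09) and 1.49-fold in R2 (0.58, SE 0.06, adjusted p = 3.03e-08). Both calls held in all 18 alternative settings run.

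ODC1 (chr2:10439968-10448327), the most abundant of the 10, moved little. Its levels were 686, 681 and 662 CPM in parental, 766, 747 and 745 in R1, and 727, 716 and 702 in R2 libraries. The 3 lines did not overlap, with R1 highest and parental lowest. In R1 it rose by 11.2% (log2 fold change 0.15, SE 0.04, adjusted p = 0.0013), a call lost without parental replicate 3 (adjusted p = 0.0121). In R2 the mean was 5.7% above parental (0.08, SE 0.04) and did not pass (adjusted p = 0.0982).

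AMD1 (chr6:110814617-110895713), which supplies the aminopropyl donor for both synthases, had 228, 210 and 215 CPM in parental, 265, 238 and 257 in R1, and 258, 257 and 246 in R2 libraries. Every resistant library was above every parental one, and the resistant lines overlapped. AMD1 rose by a log2 fold change of 0.22 in R1 (SE 0.05, adjusted p = 0.000647) and of 0.22 in R2 (SE 0.05, adjusted p = 0.000596). With GC and length trends removed the R1 value was 0.38. The AMD1 span overlaps that of CDK19, which had 258 to 457 counts per library, and the pseudogene AMD1P3 had 1 to 8.

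SMS (spermine synthase, chrX:21940709-21994837) did not follow SRM. Its libraries ran from 74.6 to 80.7 CPM in parental, 70.7 to 81.1 in R1 and 69.9 to 77.8 in R2, and all lines overlapped. The log2 differences were -0.03 in R1 (95% confidence interval -0.16 to 0.10, adjusted p = 0.766) and -0.07 in R2 (-0.20 to 0.05, adjusted p = 0.404). The ratio of SRM to SMS reads within a library thus averaged 1.21 ± 0.177 in parental, 1.98 ± 0.279 in R1 and 1.90 ± 0.198 in R2 (SD, n = 3), given as a description.

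The antizyme pair that sets ODC1 turnover did not pass in either line. OAZ1 (chr19:2269486-2273488) ran from 522 to 531 CPM in parental, 512 to 564 in R1 and 493 to 522 in R2 libraries, overlapping throughout. Its log2 differences were 0.01 in R1 (95% confidence interval -0.08 to 0.10, adjusted p = 0.899) and -0.04 in R2 (-0.13 to 0.04, adjusted p = 0.493). AZIN1 ran from 203 to 214 CPM in parental, 220 to 234 in R1 and 217 to 238 in R2 libraries, with every resistant library above the parental ones. AZIN1 was 0.12 above parental in R1 (95% confidence interval 0.02 to 0.21, adjusted p = 0.0561) and 0.12 in R2 (0.03 to 0.22, adjusted p = 0.0472).

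With trends on GC content and gene length removed, a setting added after the data were seen, AZIN1 passed as higher in R1 (log2 fold change 0.25, adjusted p = 3.38e-07) and in R2 (0.17, adjusted p = 0.000219). In the same setting OAZ1 passed as lower in R1 (-0.17, adjusted p = 8.22e-05) and in R2 (-0.16, adjusted p = 0.000184). Both calls, and the direction of OAZ1 in R1, therefore rest on how such trends are treated.

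Among the genes that break polyamines down, SAT1 and SMOX rose in both lines. SAT1 (chrX:23783173-23786210), whose product acetylates spermidine and spermine, had 109, 108 and 109 CPM in parental, 153, 149 and 154 in R1, and 133, 131 and 133 in R2 libraries. The lines did not overlap, and the spread within each line was narrow, with SDs of 0.633, 2.61 and 1.13 CPM. SAT1 rose by 39.5% in R1 (log2 fold change 0.48, SE 0.05, adjusted p = 3.50e-09) and by 21.8% in R2 (0.28, SE 0.05, adjusted p = 2.33e-05).

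SMOX (spermine oxidase, chr20:4148828-4187727) was at a low level, with 97, 62 and 87 counts in the parental libraries. It had 5.72, 4.48 and 4.57 CPM in parental, 10.6, 13.1 and 12.8 in R1, and 10.5, 9.79 and 9.93 in R2 libraries. Every resistant library was above every parental one, and R1 lay above R2. SMOX rose 2.46-fold in R1 (log2 fold change 1.29, SE 0.13, adjusted p = 5.19e-09) and 2.04-fold in R2 (1.03, SE 0.13, adjusted p = 4.72e-07), and kept both calls in all 18 alternatives.

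PAOX (chr10:133379262-133391694), which oxidises acetylated polyamines, was higher in R2 only by a call that rests on single libraries. It had 39, 50 and 38 counts in parental, 36, 64 and 35 in R1, and 85, 64 and 73 in R2 libraries, or 2.30, 3.61 and 1.996, then 2.21, 4.02 and 2.19, then 5.05, 3.96 and 4.77 CPM. R2 lay above parental in every library, while R1 overlapped both. In R2 PAOX rose 1.74-fold (log2 fold change 0.83, SE 0.23, adjusted p = 0.00519), and in R1 it was at 0.12 (95% confidence interval -0.38 to 0.63, adjusted p = 0.76). The R2 call was lost without parental replicate 1 (adjusted p = 0.0277), parental replicate 3 (0.0504), R2 replicate 1 (0.0361) or R2 replicate 3 (0.0205), and with DESeq2 (0.0116).

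Directly compared, the resistant lines differed in SAT1 alone of the 9. SAT1 was lower in R2 than in R1 (log2 difference -0.20, SE 0.05, adjusted p = 0.00475), with no overlap between the lines, against 7.16% of all genes passing, 3.39% as higher and 3.77% as lower in R2. This call was lost without R1 replicate 1 (adjusted p = 0.0108), R1 replicate 3 (0.0341), R2 replicate 1 (0.0218), R2 replicate 2 (0.0340) or R2 replicate 3 (0.0138). PAOX was 0.71 higher in R2 than in R1 (SE 0.23) but did not pass (adjusted p = 0.0348); without R1 replicate 2 it did (1.06, adjusted p = 0.00253), and in the fit that blocks on replicate number it did as well (0.73, adjusted p = 0.00631), giving 2 of 9.

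For the other 7 genes the difference between R2 and R1 did not pass. SMOX was at -0.27 (95% confidence interval -0.51 to -0.03, adjusted p = 0.147), SRM at -0.10 (-0.23 to 0.03) and ODC1 at -0.07 (-0.15 to 0.0011). None reached the size of 1.5 asked of a differentially expressed gene, which 0.764% of all genes did, and the count was 0 with DESeq2 and with an unadjusted p under 0.05 in edgeR. The median over the 9 was -0.05, beside -0.0011 for all genes tested.

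Divided by exon length, the pathway's RNAs covered a wide range, with the synthesis and antizyme genes high and the oxidases low. In parental libraries ODC1 averaged 205 CPM per kilobase and OAZ1 153, followed by SRM at 49.6, SAT1 at 43.8, SMS at 36.7, AZIN1 at 34.02 and AMD1 at 21.4. SMOX (1.67), PAOX (1.17) and AOC1 (0.686) closed the order. SMOX and PAOX overlapped between parental libraries, and each other pair of neighbours was separate over the 3 libraries.

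In R1, AOC1 at 4.76 CPM per kilobase stood above SMOX at 4.12 and PAOX at 1.25, with its lowest library at 4.44 and the highest SMOX library at 4.43. In R2 it stood at 2.79, between SMOX at 3.41 and PAOX at 2.04. SMS and AZIN1 overlapped in both resistant lines. With the longest transcript in place of all exons, SAT1 ranked above SRM in each line, and the other ranks were as given.

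**Figure D4:**
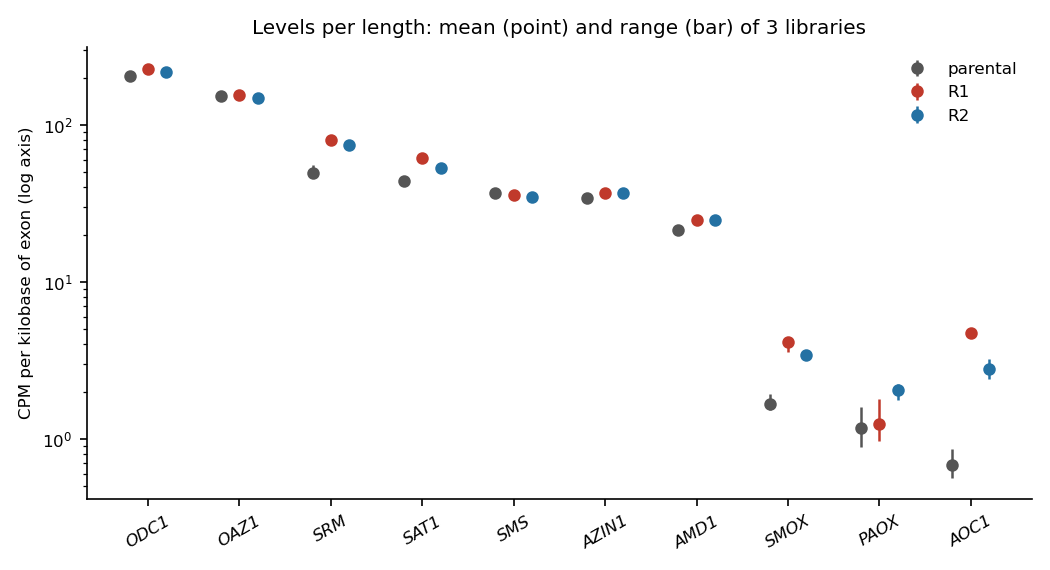
Level of each gene in CPM per kilobase of exon (vertical log axis), as the mean (point) and range (bar) of 3 libraries for parental cells (grey), R1 (red) and R2 (blue). ODC1 and OAZ1 lie above 100 in all lines, and AOC1 moves from last place at 0.686 in parental to 4.76 in R1.

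The plot of levels per kilobase also shows how ODC1 stands to the genes that act on it or after it. The ratio of ODC1 to OAZ1 reads within a library was 1.27 to 1.29 in parental, 1.32 to 1.498 in R1 and 1.35 to 1.45 in R2, with no overlap between parental and resistant libraries. ODC1 to AZIN1 was 3.16 to 3.36 in parental, 3.28 to 3.38 in R1 and 3.05 to 3.24 in R2, and parental overlapped both resistant lines. OAZ1 to AZIN1 was 2.49 to 2.61, 2.19 to 2.52 and 2.18 to 2.40 in that order, and parental overlapped R1 only. ODC1 to SAT1 averaged 6.22 ± 0.123 in parental, 4.96 ± 0.103 in R1 and 5.40 ± 0.0973 in R2 (SD, n = 3). SMOX to PAOX averaged 2.01 ± 0.67, 4.62 ± 1.30 and 2.21 ± 0.227 in the same order. These ratios restate the levels above and were not tested.

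The remaining genes of the pathway and its surroundings were read from lists, each against the same background. The lists were chosen by function, with earlier results of these data known. Of 7 tested further polyamine enzymes and regulators, ARG2, a mitochondrial arginase that yields ornithine, rose in R1 (log2 fold change 0.63, adjusted p = 0.000132) and was at 0.24 in R2 (adjusted p = 0.162). AGMAT, annotated as an agmatinase, was lower in R2 (-0.28, adjusted p = 0.00158), a call lost without parental replicate 1 or 3 or R2 replicate 1 or 2 (adjusted p up to 0.0153). The others, among them SAT2 (0.08 in R1 and -0.21 in R2) and AZIN2 (0.52 and 0.85), did not pass, and the list's median was 0.10 in R1 and -0.0098 in R2. By count, 1 of 7 passed as higher in R1 and 1 of 7 as lower in R2. Beside these, 14.0% of all genes tested passed as higher in R1 and 11.6% as lower in R2.

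Of 10 tested genes tied to polyamine transport, 4 passed as higher and 1 as lower in R1, and 3 and 1 in R2. Of all genes tested, 14.0% passed as higher and 13.4% as lower in R1, and 12.3% and 11.6% in R2. SLC3A2, the shared heavy chain of amino acid exchangers that has been linked to polyamine export, rose from 270 CPM to 362 in R1 and 374 in R2 (log2 fold change 0.42, adjusted p = 2.72e-08, and 0.47, adjusted p = 3.78e-09). SLC12A8 rose by 0.33 in R1 and 0.40 in R2, with the R1 call lost without parental replicate 1 or 3 or R1 replicate 3 (adjusted p up to 0.0162). GPC1, a glypican, rose by 0.49 in R1 and 0.24 in R2, and the R2 call was lost in 9 of 18 alternatives (adjusted p up to 0.434 with GC and length trends removed), also without parental replicate 1 or 3, R1 replicate 3 or any R2 library.

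CAV1, the caveolin linked to polyamine uptake by endocytosis, moved the other way. It fell from 38.3 ± 2.18 CPM in parental to 24.4 ± 0.649 in R1 and 17.4 ± 1.95 in R2 (SD, n = 3), log2 fold changes of -0.65 (adjusted p = 1.87e-07) and -1.14 (adjusted p = 1.14e-11). It was also lower in R2 than in R1 (-0.48, adjusted p = 0.000323), and kept these calls in every alternative. SLC7A2 and SLC47A1 were at 0 in all libraries, and the list's median was 0.15 in R1 and 0.04 in R2.

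In the methionine cycle and salvage list, MAT1A, the liver form of methionine adenosyltransferase, was the only gene of the 9 tested past the study's size threshold of 1.5 in the edgeR fit. It had 6, 2 and 4 counts in parental, 27, 45 and 32 in R1, and 18, 22 and 15 in R2 libraries. MAT1A rose by a log2 fold change of 3.13 in R1 (adjusted p = 1.80e-07) and 2.21 in R2 (adjusted p = 0.000158). With DESeq2's shrunken fold changes (lfcShrink, type normal), MAT1A was at 1.53 in R1 and at 0.92, a size below 1.5, in R2. The study also used lfcShrink but does not name the type, so its own values may differ from these. Summed over libraries, the ratio to parental was 8.96 in R1 (95% confidence interval 4.91 to 17.9) and 4.73 in R2 (2.503 to 9.71), intervals that cover counting error only. MAT2A, the form used by most other tissues, had a mean of 312 CPM in parental and did not pass (0.06 in R1 and 0.12 in R2).

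MTAP and ENOPH1, which recycle the methylthioadenosine left by SRM and SMS, rose in both lines, MTAP by 0.24 and 0.44 and ENOPH1 by 0.24 and 0.27. The MTAP call in R1 was lost without R1 replicate 1 (adjusted p = 0.0156). ADI1, a later step of the same salvage route, was at -0.24 in both lines and did not pass. In all, 4 of 9 passed as higher and 1 as lower in R1, and 3 and 1 in R2, with medians of 0.06 and 0.10. The shares of all genes tested were 14.0% higher and 13.4% lower in R1, and 12.3% and 11.6% in R2.

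Of the 4 genes of hypusine synthesis, the use of spermidine to modify the translation factor eIF5A, EIF5A and EIF5A2 rose in both lines. EIF5A2 went from 16.8 ± 1.23 CPM to 29.7 ± 2.17 in R1 and 35.3 ± 2.07 in R2 (SD, n = 3), log2 fold changes of 0.82 (adjusted p = 9.93e-09) and 1.07 (adjusted p = 3.99e-11). EIF5A rose by 0.29 and 0.19, with the R2 call lost in 9 of 18 alternatives (adjusted p up to 0.0728), among them those without parental replicate 1 or 3, R1 replicate 3 or R2 replicate 2 or 3. DHPS, which starts the modification, was at -0.02 and 0.02 and did not pass. DOHH, which completes it, rose in R1 (0.34, adjusted p = 0.00287), a call lost without parental replicate 1 or 3 or R1 replicate 2 or 3 and with GC and length trends removed (adjusted p up to 0.529). By count, 3 of 4 passed as higher in R1 and 2 of 4 in R2, and 0 as lower in either. Beside these, 14.0% of all genes tested passed as higher in R1 and 12.3% in R2. The list's median was 0.31 in R1 and 0.19 in R2.

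Among amine oxidases and histamine genes, the relatives of AOC1 were at low levels. AOC3 had 0 counts in all parental libraries, 11 over the R1 libraries and 16 over the R2 libraries, at least 3.79-fold and 5.51-fold above a floor of 3 counts over the parental line, with lower 95% counting limits of 2.59 and 3.98. With DESeq2's shrunken fold changes AOC3 was at 0.36 and 0.49. AOC3 passed in both lines, but in R1 the call was lost in 10 of 17 alternatives, among them those without any one of the parental libraries, R1 replicate 1 or 2 or R2 replicate 1 or 2 (adjusted p up to 0.0359), and in R2 without parental replicate 3 or R2 replicate 2 (up to 0.011). AOC2 rose in R1 from 0.785 to 2.01 CPM (log2 fold change 1.35, adjusted p = 0.00114) and was at 1.05 CPM in R2 (0.43, adjusted p = 0.406).

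ALDH1A1, one of the aldehyde dehydrogenases that can take up the products of amine oxidation, was nearly absent from the resistant lines. It had 29, 20 and 29 counts in the parental libraries, 0, 0 and 2 in R1 and 0 in every R2 library. Its level was 37.7-fold lower in R1 (95% counting interval 10.1 to 317) and at least 25.2-fold lower in R2 against a floor of 3 counts over the line, with a lower 95% counting limit of 20.004. ALDH9A1 fell by 0.20 on the log2 scale in R1 and by 0.20 in R2, calls lost without parental replicate 2 in both, R1 replicate 3 or any R2 library (adjusted p up to 0.0243 and 0.0128). HDC and HRH2 were at 0 in all libraries, and HRH1, at 17.3 CPM in parental, did not pass (0.04 and 0.08). Of the 7 tested genes of the amine oxidase and histamine list, 2 passed as higher and 2 as lower in R1, and 1 and 2 in R2. Over all genes tested, 14.0% passed as higher and 13.4% as lower in R1, and 12.3% and 11.6% in R2. The list's median was 0.02 in R1 and 0.05 in R2.

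Known regulators of ODC1 and SAT1 transcription were level or lower in the resistant lines. MYC, a known activator of ODC1, was at 283, 292 and 286 CPM in parental, R1 and R2 and did not pass. MYCN, its paralogue, fell from 8.82 ± 1.17 CPM to 1.87 ± 0.183 in R1 and 1.56 ± 0.362 in R2 (SD, n = 3), log2 fold changes of -2.23 (adjusted p = 6.94e-11) and -2.49 (adjusted p = 1.46e-11). MAX, their partner, fell by 0.33 and 0.36, and NFE2L2, which with PMF1 is known to act at the SAT1 promoter, fell by 0.33 and 0.29. PMF1 was at -0.15 in R1 and lower in R2 (-0.57, adjusted p = 0.00273), a call lost without parental replicate 2 or R2 replicate 1 (adjusted p up to 0.0427). In all, 3 of 5 passed as lower in R1 and 4 of 5 in R2, against 13.4% and 11.6% of all genes tested.

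**Figure D5:**
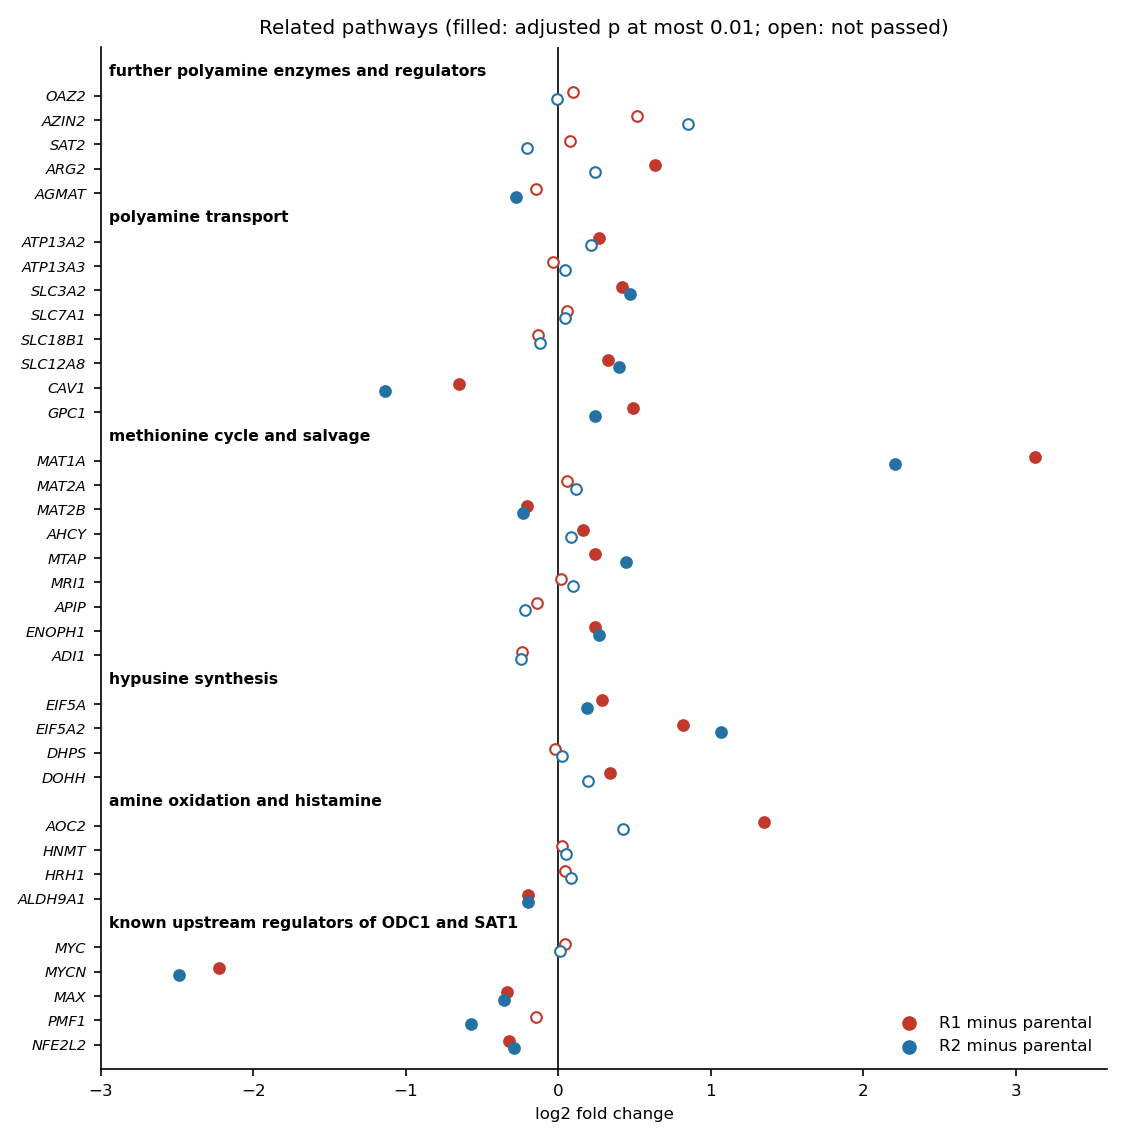
Log2 fold change against LIM1215-parental (horizontal axis) in R1 (red) and R2 (blue) of 35 genes of the 6 lists at 1 CPM or more in a line, filled where the adjusted p was at most 0.01. MAT1A lies farthest to the right, at 3.13 and 2.21, and MYCN farthest to the left, at -2.23 and -2.49.

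The plot of the lists leaves off ALDH1A1, whose fitted fold change depends on libraries at 0. After MAT1A, MYCN, AOC2 and CAV1, the gene farthest from 0 was EIF5A2, at 1.07 in R2.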

How the data were processed

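RNA from the parental line and both resistant lines (3 libraries each) was sequenced as stranded, paired-end libraries. Per the labels and the study's methods, the authors used STAR with hg38 and deposited raw read counts per gene from HTSeq 0.9.1 (reverse strand). The annotation is not given in the sources used here. No count was normalized before deposit.

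Genes whose counts summed to at least 10 across the 9 libraries (19102 of 58920) were fitted with edgeR 4.0.16 in R 4.3.3 (TMM, quasi-likelihood test, the 3 lines as groups, no covariate). P-values were adjusted by Benjamini-Hochberg over all genes tested. CPM values use TMM-scaled totals, and levels per kilobase use the exon union of GENCODE genes on GRCh38. A floor of 3 counts corresponds to 0.158 to 0.217 CPM per library and to 0.0602 to 0.0622 CPM over a line. Intervals from counts and floors cover counting error only. What edgeR names the common biological coefficient of variation was 4.92%. Here it measures the spread between libraries that the study calls technical replicates. The fit was tested on simulated data. Alternatives included DESeq2 1.42.0, other filters and scalings, a replicate block and leaving out each library. Removal of GC and length trends was added after the data were seen.

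The members and gene lists were chosen with earlier results of these data known. Text names came from a fixed rule. It took the members and any list gene past the study's threshold. Otherwise it took up to 4 list genes at 1 CPM or more with the largest mean change. It also took the 5 genes most like AOC1, and its 5 tested neighbours on each side where one was past that threshold. No neighbour was past it in either line, so the neighbours were named outside the rule. Other genes named from the lists (ALPI, FABP1, FABP2, SI, CDHR5, ANPEP, CD68, PECAM1, MAT2A, MYC and those at 0) were added after their values were seen. Gene symbols matched RefSeq for 57536 of 58920 rows and for all 10 members.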

Additional observations from a re-analysis of the deposited data

Results flagged for a closer look

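In 4 genes named above, the changes of the resistant lines against LIM1215-parental differed from each other by the direct test of R2 against R1. SAT1 was lower in R2 than in R1 by a log2 difference of -0.20, a call kept in only 12 of 18 alternatives. CAV1, already lower in R1, was lower still in R2, at -0.48 against R1. KCNH2, downstream of AOC1, was higher in R2, at 0.50 against R1, a call lost in 7 of 18 alternatives. ALPI, the intestinal alkaline phosphatase, was lower in R2, at -1.04 against R1, a call lost without R2 replicate 1 (adjusted p = 0.0159). The 5 genes picked for a profile like that of AOC1 are not counted here, since R2 against R1 was part of what picked them. No group had the 4 samples needed to look for a library far from the others.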

How the results depend on the processing

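Of 486 recomputed fold changes of the 9 members, 443 kept their direction and their side of the threshold, 13 lost a call, 7 gained one and 23 changed sign. With the study's size threshold of 1.5 the counts of members passing were 0 of 9 in all 3 comparisons, the member nearest to it being SMOX in R1 at 1.29. For R1 against parental and R2 against parental, leaving out each library gave 4 to 5. Both counts were 7 with GC and length trends removed, where AZIN1 and OAZ1 joined. For R2 against R1 the count of 1 became 2 with no filter, with GC and length trends removed, with the replicate block and at the looser adjusted p of 0.05. It became 0 with scaling by total counts only, and leaving out each library gave 0 to 2.

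The sign changes were in genes near 0. For R1 against parental, SMS ranged from -0.071 to 0.026 and PAOX from -0.23 to 0.39 when each library was left out, and PAOX was at -0.071 with GC and length trends removed. OAZ1 was at -0.025 with total counts only and -0.17 with those trends removed, and ranged from -0.035 to 0.036 over left-out libraries. For R2 against R1, AMD1 was at -0.0058 under the stricter filter (10 counts in each library), -0.00057 with no filter, -0.0014 with DESeq2 size factors and in both DESeq2 fits, -0.094 with the trends removed and -0.00076 with 6 libraries, and ranged from -0.040 to 0.037 over left-out libraries. AZIN1 was at -0.0030 under the stricter filter and -0.079 with the trends removed, and ranged from -0.030 to 0.037. OAZ1 was at 0.0086 with the trends removed. The cause was not tested.

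AOC1 ranged from 2.47 to 2.98 in R1 and from 1.74 to 2.20 in R2. Replicate numbers shared by the lines did not pair the libraries: correlations of same-numbered libraries' deviations ran from -0.019 to 0.098. With the replicate block, 5, 5 and 2 members passed in the 3 comparisons. Depth limits PAOX and AOC1 in parental cells, at 36 to 50 counts per library, and GC and length values covered 86.3% of the genes tested.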
